A study of Mus musculus with 8 samples.

Results

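The 48 genes described here encode the enzymes and transporters that carry glucose carbon from uptake through glycolysis, the handling of lactate and pyruvate, and the citric acid cycle. They were chosen by symbol, and all 48 were found among the 26229 genes of the authors' deposited table. Of these, 18 belong to glycolysis including glucose uptake, 15 to lactate and pyruvate handling and 15 to the citric acid cycle with its aspartate and malate partners. Polyadenylated RNA was sequenced from neurons that were prepared from the cortex of mouse embryos at E16.5 and kept for 12 days in culture. One group was wild type (WT, 4 libraries). The other carried a knockout of the histone H2B variant H2BE made by an mCherry knock-in (H2BE-KO/mCherry-KI, 4 libraries), and H2BE is encoded by H2bc21. By the labels these are biological replicates, with no strain, sex, litter or pooling given. The comparison asks how transcript levels differ in neurons that lack H2BE.

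Neurons take up glucose mainly through the transporter GLUT3 and break it down to pyruvate in the cytosol. Pyruvate is either exchanged with lactate or carried into mitochondria, where the pyruvate dehydrogenase complex turns it into acetyl-CoA for the citric acid cycle. Kinases of the PDK family switch that complex off, and the NADH and succinate of the cycle feed the respiratory chain that makes most neuronal ATP.

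The authors' deposited table gives 1 DESeq2 comparison of the genotypes and holds no value per library, so each fold change, standard error (SE) and adjusted p below is theirs. A gene was called at an adjusted p under 0.05. The header names no direction, so the sign was taken from the targeted gene: H2bc21 was given the lower level in the knockout, 9.12% of wild type (log2 -3.45, SE 0.19, DESeq2 adjusted p = 4.49e-68), with a mean normalized count of 1109. This reading is an inference, and with the opposite sign all directions below would turn. The mean normalized counts of all genes summed to 3.96e+07, and those of the 48 genes made up 1.14% of that sum. The neuronal genes Map2 and Snap25 had mean counts of 90482 and 30067, and the microglial gene Cx3cr1 had 7.24. Astrocyte markers varied widely: the 11 tested had a median mean count of 194, from 19.1 to 13490 (Slc1a2), with Gfap at 69.4.

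Most of these genes were lower in the knockout. Of the 48, all of them tested, 30 fell, 3 rose and 15 did not pass. In the authors' deposited table the share of all 18085 tested genes that was called was 21.8%, 10.9% lower and 11.0% higher. Among the 6808 with a mean count of at least 1000 it was 30.6%, 15.0% lower and 15.6% higher. Of the 48 genes 62.5% were called lower. Their median log2 fold change was -0.42, or 74.5% of the wild-type level, against -0.02 for all tested genes and -0.02 for those of high count. The falls were of moderate size: 25 of the 30 lay between -0.75 and -0.30, and Mdh1 alone passed a log2 change of 1. The 3 genes that rose were Slc16a7, Pfkl and Pfkfb3. The calls depend on the null distribution. Under a t null (6 degrees of freedom) for the Wald score none of the 48 passed, against 34 at an unadjusted p under 0.05, and with an empirical null, 1.96 times as wide as the normal, 2 passed (Ldhb and Got2). Of all 18085 tested genes, 1 was called under the t null and 74 under the empirical null (0.127% lower and 0.282% higher).

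**Figure D1:**
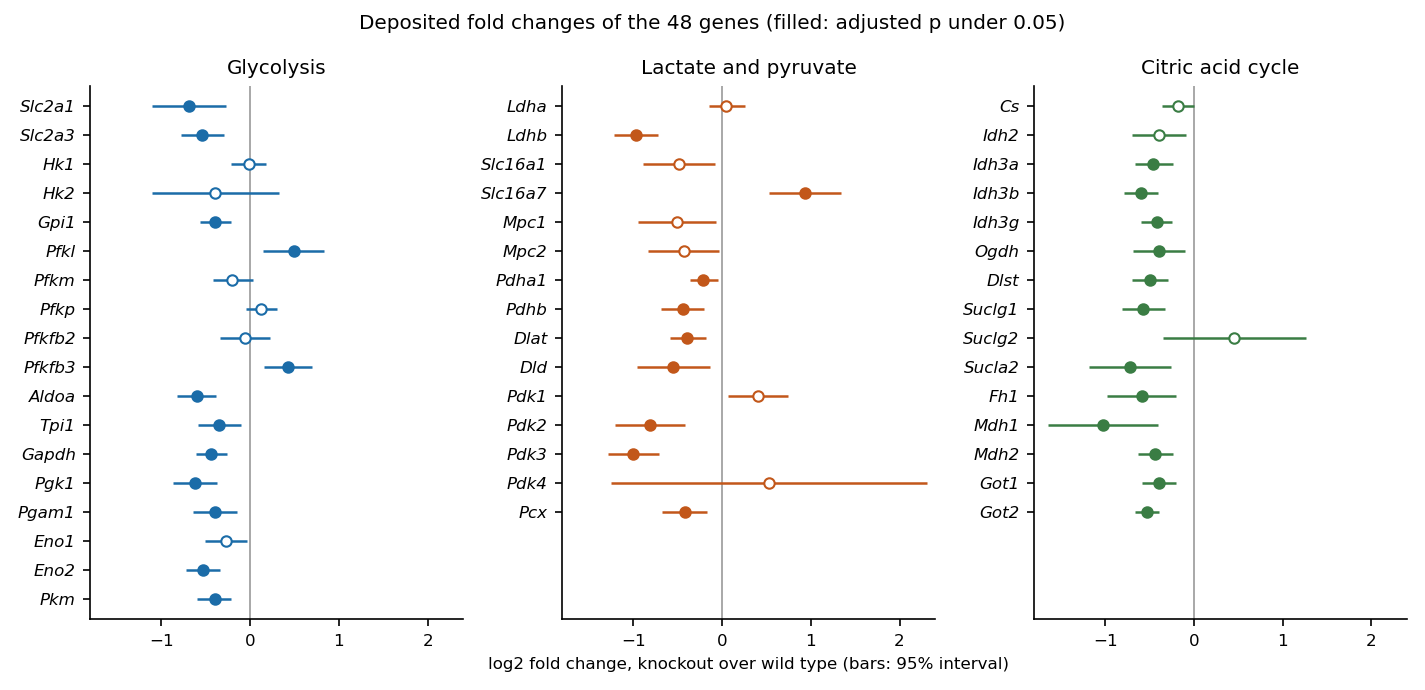
Each point is the deposited log2 fold change (knockout over wild type) of 1 gene with its 95% interval, in 3 panels for glycolysis, lactate and pyruvate handling, and the citric acid cycle, and filled points have an adjusted p under 0.05. Of the 48 points 40 lie below 0, and the 3 filled points above 0 are Pfkl, Pfkfb3 and Slc16a7.

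The 3 groups had close medians and different spreads. In the citric acid cycle 12 of 15 genes fell, 0 rose and 14 lay below 0 (median -0.46). In glycolysis 10 of 18 fell and 2 rose, with a median of -0.39. In lactate and pyruvate handling 8 of 15 fell and 1 rose, with a median of -0.43 and the widest range, from 50.1% (Pdk3) to 192% (Slc16a7) of wild type. The difference between the groups was not tested. Summed over genes, the levels implied by the deposited mean counts and fold changes were 65.6% of wild type for the cycle, 77.6% for glycolysis and 81.1% for lactate and pyruvate handling. Mdh1, with an implied count of 58458 in wild type and 28579 in the knockout, weighs most in the first of these sums.

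**Figure D2:**
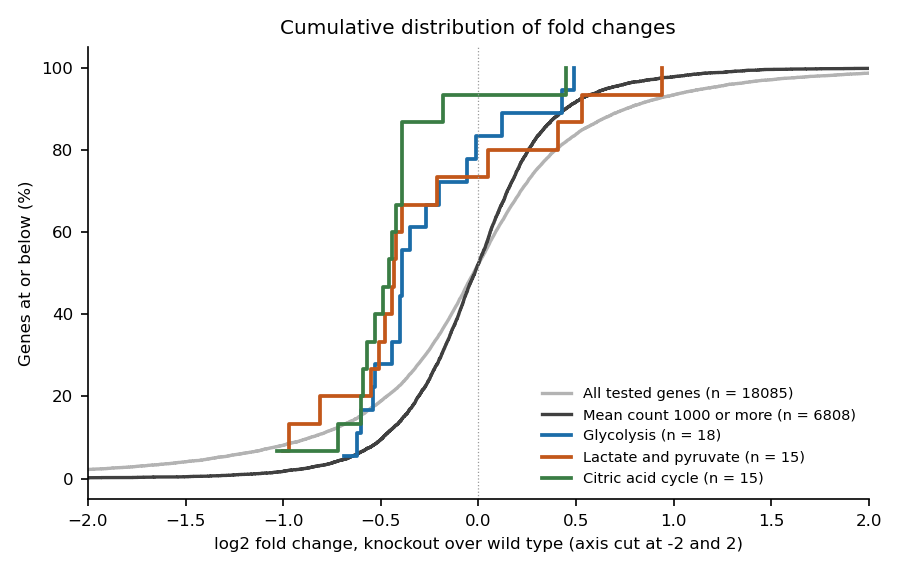
The steps give the percentage of genes at or below each log2 fold change (knockout over wild type) for all tested genes, for those of mean count 1000 or more and for the 3 groups. The curves of the 3 groups run to the left of both grey curves over most of the range, with medians of -0.39, -0.43 and -0.46 against -0.02.

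Both glucose transporter genes were lower. Slc2a3, the gene of the neuronal glucose transporter GLUT3, fell to 68.8% of wild type (log2 fold change -0.54, SE 0.13, adjusted p = 2.73e-04 in the authors' deposited table). Slc2a1, the gene of GLUT1, which predominates in endothelial and glial cells, fell to 62.1% (SE of log2 0.21, adjusted p = 0.00838). Per kilobase of exon the mean count of Slc2a3 was 1688 and that of Slc2a1 was 146.

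Of the hexokinase and phosphofructokinase genes none was called lower. Hk1, the gene of the main brain hexokinase, was at -0.01 on the log2 scale (95% interval -0.21 to 0.18) and a mean count of 15399. Hk2 was sparse, at a mean count of 78.6, and its interval from -1.11 to 0.32 is too wide to place it. The 3 phosphofructokinase genes differed. In the authors' deposited table Pfkl, the liver-type subunit, rose to 140% of wild type (log2 0.49, SE 0.18, adjusted p = 0.0292), while Pfkm, the muscle-type subunit, was at -0.20 (adjusted p = 0.227) and Pfkp, the platelet-type subunit, at 0.12 (adjusted p = 0.358). Per kilobase, Pfkm made up 78.1% of the family in wild type and 72.5% in the knockout, and Pfkl 6.90% and 10.3%. These shares depend on the exon lengths, 3340 bases for Pfkm and 13401 for Pfkp. Not divided by length, the implied wild-type counts were 12655 for Pfkm and 9723 for Pfkp. Pfkfb3, whose enzyme makes the phosphofructokinase activator fructose 2,6-bisphosphate, rose to 135% (log2 0.43, SE 0.14, adjusted p = 0.0122). Its relative Pfkfb2 was at -0.06 (adjusted p = 0.811). Corrected for exon length and GC content, Pfkl lost its call (log2 0.42).

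From aldolase to pyruvate kinase nearly every gene was lower. Gpi1, the isomerase before phosphofructokinase, fell to 76.4% of wild type. Aldoa, the main aldolase gene, fell to 65.9% (log2 -0.60, SE 0.11, adjusted p = 3.99e-06 in the authors' deposited table). Among the 7 genes from triose phosphate isomerase to pyruvate kinase, 6 fell and 1 did not pass. Pgk1, the gene of phosphoglycerate kinase, was at 65.1% (log2 -0.62, adjusted p = 2.76e-05). Gapdh, often used as a reference gene, fell to 73.9% (log2 -0.44, 95% interval -0.61 to -0.26, adjusted p = 1.96e-05), and its mean count was 34103. Pkm (75.7%), Pgam1 (76.0%) and Tpi1 (78.7%) also fell, the last 2 losing their calls after that correction. Of the enolases, Eno2, the neuron-specific form, fell to 69.2% (log2 -0.53, SE 0.10, adjusted p = 2.16e-06), and Eno1, the form found in most cells, was at 82.9% (log2 -0.27, SE 0.12, adjusted p = 0.0891).

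The balance of lactate dehydrogenase isoenzymes differed between genotypes. Ldhb encodes the H subunit, which prevails in neurons, and Ldha the M subunit, which prevails in glycolytic tissues. Ldhb fell to 51.0% of wild type (log2 -0.97, SE 0.13, 95% interval -1.22 to -0.72), and its adjusted p of 2.48e-11 was the smallest of the 48 genes in the authors' deposited table. Ldha was at 104% (log2 0.05, SE 0.10, 95% interval -0.15 to 0.26). Per kilobase, the implied level of Ldhb was 8935 in wild type and 4560 in the knockout, against 6016 and 6234 for Ldha. On this scale the order of the 2 genes turned, and the share of Ldha moved from 40.2% to 57.8%. That order rests on the exon lengths, 3310 bases for Ldha and 1570 for Ldhb. Not divided by length, the implied count of Ldha was the higher in wild type (19913 against 14028) and in the knockout (20634 against 7160). On GRCm38 Ldhb spans chr6:142490249-142507957 on the minus strand and Ldha chr7:46841475-46855627 on the plus strand. The change of the ratio, 2.03-fold, has no test, since the table does not give how the 2 genes vary together over libraries.

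Of the 4 PDK genes 2 fell and 2 did not pass. Pdk3 fell to 50.1% (95% interval of log2 -1.28 to -0.71, SE 0.15, adjusted p = 1.46e-09 in the authors' deposited table) and Pdk2, the most widely expressed form, to 56.8% (log2 -0.81, SE 0.20, adjusted p = 6.18e-04). Pdk1, a known target of hypoxia-inducible factor, was at 133% without passing (log2 0.41, SE 0.17, adjusted p = 0.0710). Pdk4 was near the limit of detection, at a mean count of 7.66. Per kilobase, Pdk1 moved from 28.1% to 49.5% of the family, and the family's implied sum from 1303 to 981.

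**Figure D3:**
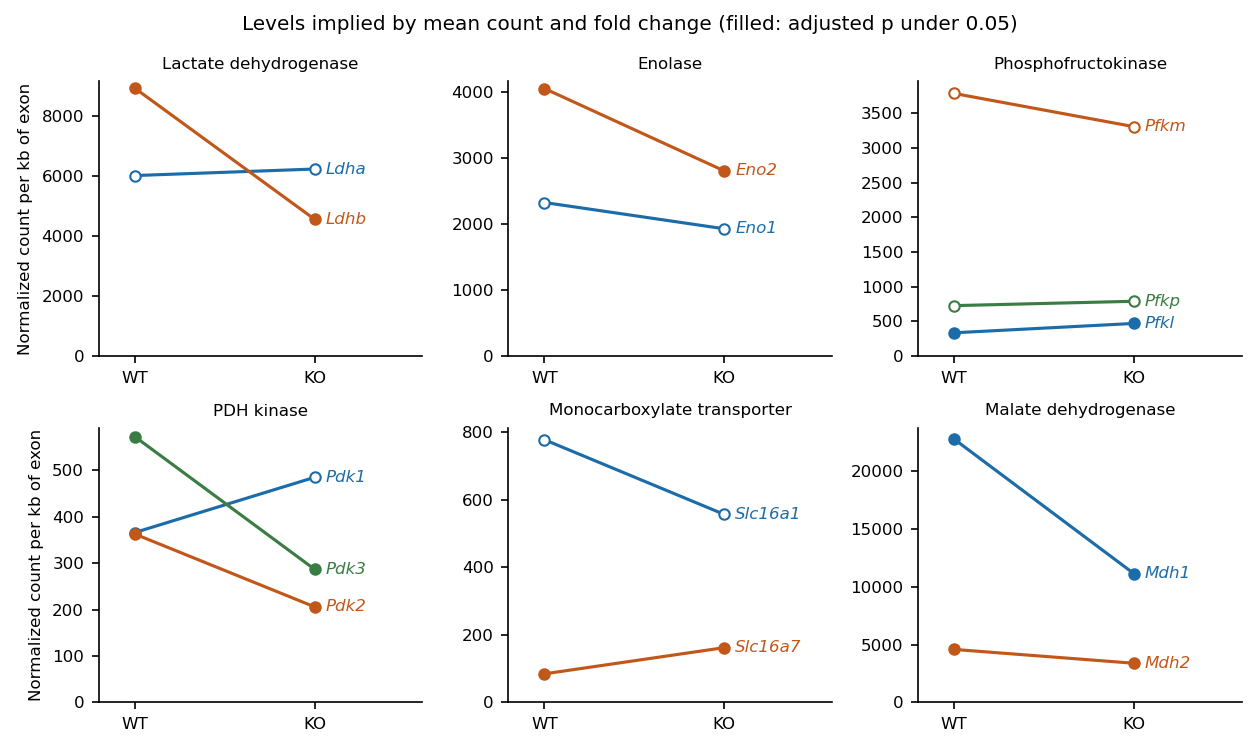
Lines join the normalized count per kilobase of exon that the deposited mean count and fold change imply in wild type (WT) and knockout (KO) for 6 enzyme or transporter families (without the sparse Pdk4), on axes starting at 0, with no error bars because the table holds no values per library, and filled points for genes with an adjusted p under 0.05. On this scale the lines of Ldha and Ldhb cross, as do those of Pdk1 and Pdk3. Not divided by exon length, the implied counts of Ldha exceeded those of Ldhb in both genotypes. The same holds for Pdk1 over Pdk3 (2847 against 1467 in wild type, 3774 against 736 in the knockout).

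The stretches before the transcription start sites of these isoenzymes are shown because hypoxia-inducible factor, which can induce Ldha, Pgk1 and Pdk1, binds a core of the letters ACGTG or GCGTG. Each is the 250 bases upstream of the start site nearest to the annotated gene start, 5′ to 3′ on the gene's strand, from RefSeq on GRCm38.p6. Capitals mark both forms of the core on either strand. The GCGTG form was added to the search after the results of the first were seen, and Pgk1 was added after its value was seen, as a gene that fell and holds the core.
Ldha, chr7:46845554-46845803, plus strand: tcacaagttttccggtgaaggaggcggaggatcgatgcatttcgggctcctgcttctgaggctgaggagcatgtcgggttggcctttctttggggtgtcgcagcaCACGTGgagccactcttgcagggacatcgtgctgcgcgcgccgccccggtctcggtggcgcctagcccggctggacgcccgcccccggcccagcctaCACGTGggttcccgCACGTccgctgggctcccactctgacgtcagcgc
Ldhb, chr6:142507958-142508207, minus strand: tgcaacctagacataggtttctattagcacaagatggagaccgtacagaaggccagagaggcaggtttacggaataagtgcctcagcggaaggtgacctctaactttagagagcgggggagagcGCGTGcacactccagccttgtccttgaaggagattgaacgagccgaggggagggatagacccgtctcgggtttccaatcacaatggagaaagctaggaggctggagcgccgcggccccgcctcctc
Pdk1, chr2:71872974-71873223, plus strand: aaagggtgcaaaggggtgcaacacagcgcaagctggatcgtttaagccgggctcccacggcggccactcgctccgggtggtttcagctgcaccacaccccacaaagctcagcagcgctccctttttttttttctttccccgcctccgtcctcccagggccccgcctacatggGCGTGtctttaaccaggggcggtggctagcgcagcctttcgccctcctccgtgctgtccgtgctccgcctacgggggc
Pdk3, chrX:93832151-93832400, minus strand: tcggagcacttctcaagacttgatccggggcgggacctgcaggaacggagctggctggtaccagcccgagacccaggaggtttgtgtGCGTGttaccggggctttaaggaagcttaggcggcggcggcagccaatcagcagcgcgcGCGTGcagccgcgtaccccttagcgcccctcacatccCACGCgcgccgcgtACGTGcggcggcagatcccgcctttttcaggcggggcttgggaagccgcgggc
Pgk1, chrX:106186850-106187099, plus strand: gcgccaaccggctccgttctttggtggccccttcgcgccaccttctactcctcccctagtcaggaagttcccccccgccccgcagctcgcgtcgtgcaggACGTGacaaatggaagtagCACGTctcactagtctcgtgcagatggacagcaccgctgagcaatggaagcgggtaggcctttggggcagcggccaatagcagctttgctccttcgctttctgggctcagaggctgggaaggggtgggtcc

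The Ldha stretch holds 3 separate runs, all of the ACGTG form. Of these, 2 are the palindrome CACGTG, which is also an E-box and matches on both strands. The Ldhb and Pdk1 stretches hold 1 match each, of the GCGTG form. The Pdk3 stretch holds 4 runs, 1 of ACGTG and 3 of GCGTG, and Pgk1 holds 2 of ACGTG. RefSeq start sites were found for 45 of the 48 genes, with 67 windows, some of which overlap. Either form was in 73.1% of these windows, in 38.6% of all 32851 windows and in 58.2% of the windows of genes with a mean count of at least 1000. For ACGTG alone the shares were 40.3%, 16.6% and 22.6%. By gene, either form was found for 20 of the 28 matched genes that fell and for 15 of the 17 others. ACGTG alone, the form searched first, was found for 12 of the 28 and for 6 of the 17. The windows held a median of 15 CpG dinucleotides, against 17 for genes of high count and 6 for all windows. A match of letters is a description and not a binding site.

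Of the 2 monocarboxylate transporter genes 1 rose and 1 did not pass. Slc16a7, the gene of MCT2, the high-affinity transporter by which neurons take up lactate, pyruvate and ketone bodies, rose to 192% of wild type (log2 0.94, SE 0.21, 95% interval 0.53 to 1.34, adjusted p = 1.16e-04 in the authors' deposited table). It was the largest rise called among the 48 genes, and the gene spans chr10:125219270-125389465 on the minus strand (GRCm38). Slc16a1, the gene of MCT1, which is found more in glia and endothelium, was at 71.5% without passing (log2 -0.48, SE 0.21, adjusted p = 0.0737). Per kilobase the implied level of Slc16a7 was 84.5 in wild type and 162 in the knockout, still below that of Slc16a1 at 777 and 556. Bsg, the gene of the chaperone basigin that brings MCT1 to the surface, fell to 70.2% (log2 -0.51, SE 0.13, adjusted p = 6.17e-04).

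The 4 genes of the catalytic subunits of the pyruvate dehydrogenase complex all fell, and the gene of its E3-binding subunit did not pass. In the authors' deposited table Dld, the gene of the dihydrolipoamide dehydrogenase that this complex shares with the oxoglutarate dehydrogenase complex, fell to 68.3% of wild type (log2 -0.55, SE 0.21, adjusted p = 0.0432). The E1 beta gene Pdhb was at -0.44 (SE 0.13, adjusted p = 0.00427), the E2 gene Dlat at -0.39 (SE 0.10, adjusted p = 0.00197) and the E1 alpha gene Pdha1 at -0.21 (SE 0.08, adjusted p = 0.0383). Pdha1 and Dld lost their calls when fold changes were centred on the median of all tested genes (-0.18 and -0.53). Pdhx, the E3-binding subunit, was at -0.08 (adjusted p = 0.352). Of the phosphatases that reactivate the complex, Pdp2 rose to 181% (adjusted p = 0.00398) at a mean count of 374, and Pdp1 was at 106% (adjusted p = 0.655) at a mean count of 3349. The pyruvate carrier genes Mpc1 and Mpc2 were at 70.2% and 74.1% without passing (adjusted p = 0.0872 and 0.113). Mpc1 is uncertain, because the annotated copy Mpc1-ps shares 261 bases with it at 100% identity and has a mean count of 463. Pcx, the gene of pyruvate carboxylase, which refills the cycle and is found mostly in astrocytes, fell to 74.5% (log2 -0.42, SE 0.13, adjusted p = 0.00932).

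In the citric acid cycle every step after citrate synthase with a gene among the 48 had at least 1 gene that fell. Cs itself was at 88.2% of wild type and did not pass (log2 -0.18, SE 0.09, adjusted p = 0.146). The 3 subunit genes of the NAD-dependent isocitrate dehydrogenase fell together in the authors' deposited table: Idh3b to 66.0% (adjusted p = 2.42e-08), Idh3a to 72.9% (adjusted p = 5.43e-04) and Idh3g to 74.6% (adjusted p = 5.89e-05). Their 95% intervals overlap, from -0.79 to -0.41 for Idh3b and from -0.60 to -0.25 for Idh3g. The NADP-dependent mitochondrial Idh2, at a mean count of 520, was at -0.39 and did not pass (adjusted p = 0.0524). Of the oxoglutarate dehydrogenase complex, Dlst fell to 71.0% (adjusted p = 3.83e-05) and Ogdh to 76.2% (adjusted p = 0.0432). Ogdh lost its call when fold changes were centred on the median of all tested genes (log2 -0.37).

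Succinyl-CoA ligase joins the shared alpha subunit Suclg1 to 1 of 2 beta subunits, the ATP-forming Sucla2 or the GTP-forming Suclg2. Suclg1 fell to 67.3% (log2 -0.57, SE 0.12, adjusted p = 5.22e-05 in the authors' deposited table) and Sucla2 to 60.8% (log2 -0.72, SE 0.23, adjusted p = 0.0147). Suclg2 was sparse, with 0.632% of the wild-type beta subunit level per kilobase, and its interval from -0.35 to 1.26 spans 0. Fh1, the gene of fumarase, fell to 66.2% (SE of log2 0.20, adjusted p = 0.0179).

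The malate and aspartate enzymes, which also shuttle reducing equivalents from cytosol to mitochondria, fell on both sides of the membrane. Cytosolic Mdh1 fell to 48.9% (log2 -1.03, SE 0.32, adjusted p = 0.00846 in the authors' deposited table) and mitochondrial Mdh2 to 73.9% (log2 -0.44, SE 0.10, adjusted p = 2.18e-04). Mdh1 was the most abundant of the 48 genes per kilobase, and among the 41 members with a mean count of at least 1000 only its SE, 0.32, lay above the 95th percentile (0.28) of all genes at such counts. Mitochondrial Got2 fell to 69.3% with the smallest SE of the group (log2 -0.53, SE 0.07, adjusted p = 3.38e-11), and cytosolic Got1 to 76.2% (SE of log2 0.10, adjusted p = 0.00101). Of 7 other genes of the malate-aspartate and glycerol phosphate shuttles 1 was called lower, 2 higher and 4 neither (median 0.04). These are 14.3% lower and 28.6% higher, against 10.9% and 11.0% of all tested genes. Slc25a11, the oxoglutarate and malate carrier, fell to 76.6% (adjusted p = 1.78e-06), whereas Slc25a12, an aspartate and glutamate carrier, was at 103% (adjusted p = 0.795). Gpd2, the mitochondrial glycerol phosphate dehydrogenase, rose to 139% (adjusted p = 2.19e-04) and the related Gpd1l to 135% (adjusted p = 1.43e-06), while the cytosolic Gpd1 was at 94.0% (adjusted p = 0.893).

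Other enzymes of the same pathways were taken from lists that do not hold the 48 genes. Of 13 tested genes of the cycle and citrate use, 7 fell and 3 rose (53.8% and 23.1%), with a median of -0.32. The shares over all tested genes were 10.9% lower and 11.0% higher. In the authors' deposited table Sdha, the gene of the flavoprotein of succinate dehydrogenase, fell to 71.0% (adjusted p = 6.12e-15). The cytosolic enzymes Idh1 and Acly, which make NADPH and the acetyl-CoA for lipid synthesis, rose to 240% (adjusted p = 6.13e-09) and 193% (adjusted p = 4.86e-06). Named after its value was seen, the cytosolic aconitase Aco1 was at 0.39 (SE 0.11, adjusted p = 0.00431). Among 14 pyruvate and lactate genes 2 fell and 2 rose (14.3% each), near the shares over all tested genes. Cytosolic malic enzyme Me1 rose to 235% (adjusted p = 1.72e-10) and mitochondrial Me3 fell to 65.3% (adjusted p = 0.00260), while mitochondrial Me2, also named after its value was seen, was at 0.09 and did not pass. Among 15 tested glycolysis genes outside the 48, 5 fell and 2 rose. Aldoc, the aldolase that marks astrocytes, rose to 411% (log2 2.04, SE 0.63, adjusted p = 0.00854), Pfkfb4 to 180% (adjusted p = 5.93e-05), and Galm and G6pc3 fell to 32.8% and 63.4%.

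**Figure D4:**
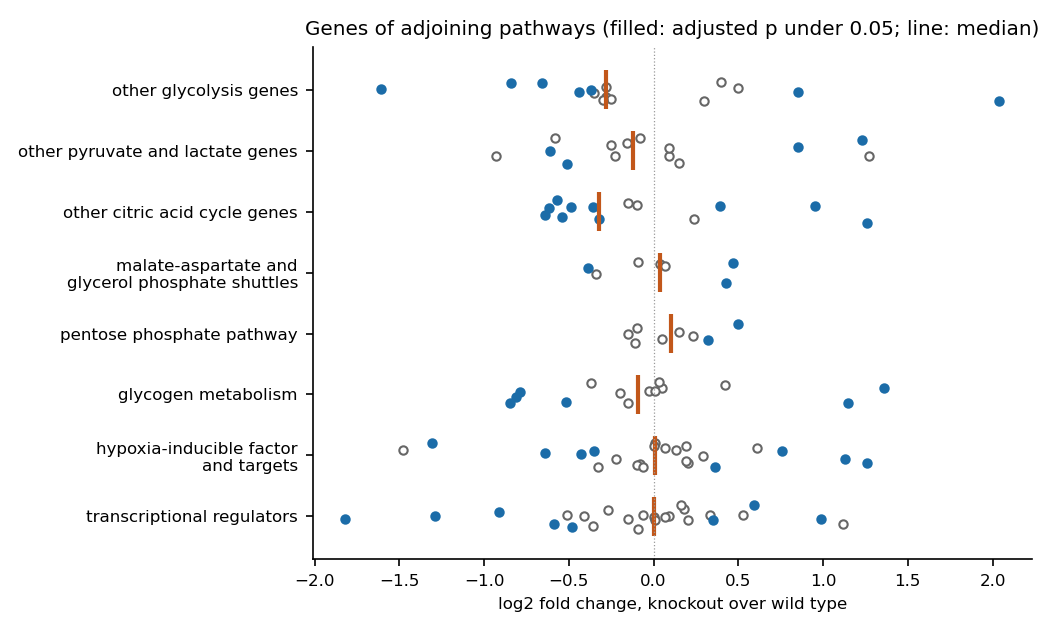
Points are the deposited log2 fold changes (knockout over wild type) of genes in 8 lists of adjoining pathways, spread vertically for legibility, with filled points for an adjusted p under 0.05 and a line at each list's median. The list of other citric acid cycle genes has filled points on both sides of 0, with 7 lower and 3 higher, and the medians of the hypoxia and regulator lists lie at 0.01 and 0.00.

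Among 25 regulators of energy metabolism 5 fell and 3 rose (20% and 12%, against 10.9% and 11.0% of all tested genes), with a median of 0.00. Ppargc1a, the gene of the coactivator PGC-1 alpha that promotes mitochondrial gene expression, fell to 53.1% (log2 -0.91, SE 0.16, adjusted p = 1.04e-06 in the authors' deposited table), and the orphan receptor gene Esrrb fell to 40.9% at a mean count of 54.1. Mycn rose to 199% (adjusted p = 3.15e-05) and Myc to 150% (adjusted p = 0.00342), both of them genes of transcription factors that can activate glycolytic genes. Of 23 tested genes of the hypoxia-inducible factor pathway outside the 48, 4 fell and 4 rose (17.4% each). These shares are near those of genes with a mean count of at least 1000, 15.0% lower and 15.6% higher. Ndrg1, Ddit4 and Egln1 rose to 240%, 169% and 128%, and Higd1a fell to 64.4%.

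Fold change and exon length were related. Among the 48 genes Spearman's rho between them was 0.49 as a description over genes, which share their libraries, and among all tested genes with an annotation it was 0.16. Genes of mean count 1000 or more were split into 3 classes of nearly equal size by exon length. In the class up to 4089 bases the median of these genes was -0.14 and 20.1% were called lower, and of the 19 members there 16 fell, with a median of -0.51. In the class up to 7006 bases the medians were 0.00 and -0.41, with 10 of 14 members lower. Above that they were 0.07 and 0.05, with 2 of 8 members lower and 2 higher. Corrected for exon length and GC content, 26 of the 30 falls stayed called and the median of the 48 genes was -0.41.

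**Figure D5:**
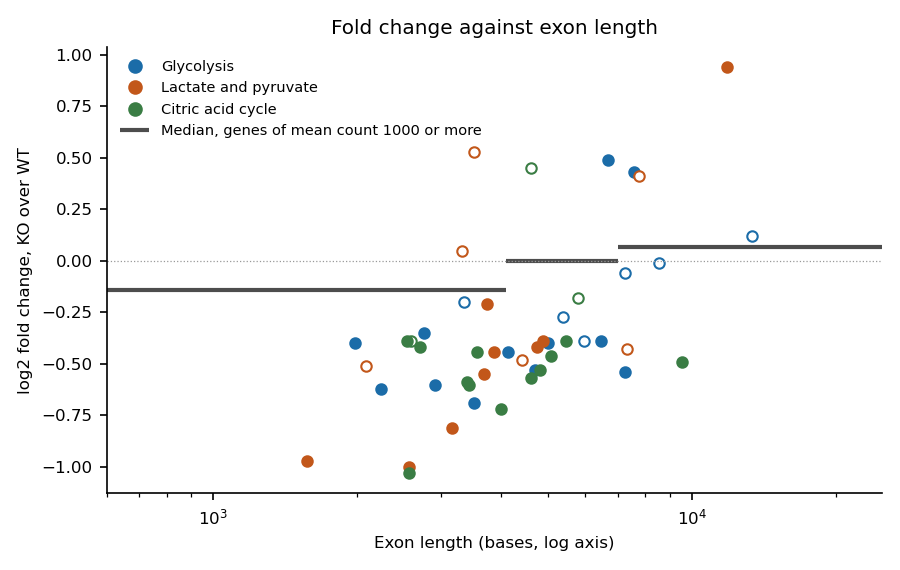
Points are the 48 genes by exon length (log axis) and log2 fold change (knockout over wild type), coloured by group and filled where the adjusted p was under 0.05, and grey lines are the medians of all genes of mean count 1000 or more in 3 length classes. The 3 filled points above 0 (Slc16a7, Pfkl and Pfkfb3) have exon lengths of 6675 bases or more, and in the shortest class 16 of the 19 members that reach that mean count fell.

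Markers of cell types also differed between the genotypes. For comparison, 10.9% of all tested genes were called lower and 11.0% higher. In bulk RNA fewer cells of a type and less RNA per cell cannot be told apart. Of the 14 tested GABAergic interneuron markers 7 were called lower and 0 higher by the authors' deposited table (median -1.15), among them Gad1 at -1.02 (SE 0.29) and Lhx6 at -1.26 (SE 0.27). Of 12 excitatory neuron markers 6 rose, up to Tbr1 at 1.90, and 2 fell, Cux1 (-0.49) and Cux2 (-0.82), with a median of 0.56. Of 12 pan-neuronal markers 4 rose, up to Tubb3 at 0.74, and 1 fell, Syp (-0.25), with a median of 0.07. Of 11 tested astrocyte markers 2 rose, Slc1a2 (0.93) and Glul (0.72), and 0 fell, with a median of 0.87 and 1 marker below 0. Of 8 oligodendrocyte lineage markers 2 rose, Mog and Cnp, and 0 fell, with 2 of the 8 below 0. Of 9 endothelial and mural markers 4 fell, Cldn5, Pdgfrb, Acta2 and Tagln, and 0 rose. Microglia markers fell in 5 of 10 cases, and those 5 had mean counts of at most 25 (Csf1r). The lowest mean count of a tested marker was 3 (Cldn5), and the table gives no marker level per library. The part of these shifts in the falls described above was not tested.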

How the data were processed

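Polyadenylated RNA of 4 WT and 4 knockout cultures was compared in 1 table of the authors' own results, with stranded libraries per the labels' protocols. The submitters' processing notes name mm10, DESeq and DESeq2. How reads were aligned and counted, and whether by strand, is not given in the sources used here. The deposited signal is the mean normalized count over all libraries, the deposited fold change and SE are on the log2 scale, the deposited score is the Wald statistic, and the deposited p-value and adjusted p-value follow from it, per the file headers. The score, p and adjusted p were checked to match each other, with largest relative gaps of 0.474% and 0.752% for the p values. Genes without an adjusted p (8135 with a p and 9 without) were not counted as tested. Depth per library is not analysed here. With no values per library, no library could be left out and no count model run.

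Signs were turned to knockout over wild type by the targeted gene. Intervals are the log2 fold change with 95% normal limits. Implied genotype levels solve the mean count and the fold change for 4 and 4 libraries. Exon lengths are unions of exons of GENCODE M21 on GRCm38 (the assembly mm10 names), matched by Ensembl identifier for 26032 genes. Pseudogene copies were aligned with blastn 2.17.0 (at least 90% identity over 200 bases). The alternatives were 2 thresholds, 2 null distributions, 2 filters, 2 centrings and removal of the trend with length and GC content (running medians over 50 bins), and their code was tested on simulated data. Named genes are the 48 members, the target and, in each other list, up to 4 called genes of smallest adjusted p or, with none called, 2 of highest count. Map2, Snap25, Gfap, Cx3cr1, Pdhx, Pdp1, Slc25a12, Gpd1, G6pdx, Cux1, Cux2 and genes said to be so were named beyond that rule. One gene that the rule names is not reported here. The members and lists were chosen with earlier results of these data known. The software was scipy 1.17.1, pandas 2.3.3 and numpy 2.4.6 under Python 3.11.15.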

Additional observations from a re-analysis of the deposited data

How the results depend on the processing

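The median log2 fold changes of the 48 genes and of the 3 groups lay between -0.48 and -0.37 under the alternatives that can move them (the empirical null with its own centre, both centrings, the removal of trends and the filter at a mean count of 100), whereas other thresholds, the t null and another set of genes for adjustment leave fold changes as they are. The number of genes called depended on the null distribution. Under a t null (6 degrees of freedom) 0 of the 48 were called lower and 0 higher, and so 0 in each of the 3 groups, against 31 and 3 at an unadjusted p under 0.05 with that distribution. With an empirical null 2 were called lower (1 of lactate and pyruvate handling, 1 of the citric acid cycle, 0 of glycolysis) and 0 higher in any group, against 18 and 1 unadjusted. By the same 2 nulls 1 and 74 of all tested genes were called. At an adjusted p under 0.01, 23 genes were lower and 1 higher, with 0 glycolysis genes higher. Of all tested genes 6.59% were lower and 7.35% higher at that threshold. At 0.1 a second gene of lactate and pyruvate handling, Pdk1, was called higher (2 in all), as were 13.8% of all tested genes. The direction of no called gene reversed. After removal of the dependence on exon length and GC 1 glycolysis gene was called higher, since Pfkl (0.42) lost its call, while 27 genes were lower, Eno1 (-0.34) among them. Either centring left 27 lower and 3 higher, with Dld, Ogdh and Pdha1 lost, and so did adjustment over every gene with a p-value. The share of all genes called lower was 9.83% after the removal of trends and 9.81% or 10.1% with the centrings. Over every gene with a p-value it was 6.64%. Reads were not analysed per library, so no replicate could be left out, and the fits with edgeR and DESeq2 were not run. No paired analysis was possible because the deposited table holds no values per library. The cause of these dependences was not tested. The median SE was 0.13 over genes of mean count 1000 or more, against 0.36 for Hk2, 0.41 for Suclg2 and 0.91 for Pdk4, the 3 members of mean count under 100, so that changes of moderate size were not detectable there. At high counts SE also varied, up to 0.32 for Mdh1.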

Other observations

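Genes of the pathways that branch from glycolysis went different ways. The shares over all tested genes were 10.9% lower and 11.0% higher. Of 8 pentose phosphate genes 2 rose and none fell in the authors' deposited table, namely Tkt, the gene of transketolase, at 141% of wild type (log2 0.50, SE 0.08, adjusted p = 6.84e-09) and Taldo1, the gene of transaldolase, at 124% (log2 0.32, SE 0.07, adjusted p = 3.50e-04). The rate-limiting G6pdx was at 0.23 and did not pass. Of 14 genes of glycogen metabolism 4 fell and 2 rose (28.6% and 14.3%). Gys1, the gene of the glycogen synthase of brain and muscle, fell to 57.2% (adjusted p = 1.50e-04), the branching enzyme gene Gbe1 to 55.5% (adjusted p = 0.00237) and Pgm1 to 69.8% (adjusted p = 0.00208), whereas Pgm2l1, the gene of a glucose 1,6-bisphosphate synthase abundant in brain, rose to 222% (adjusted p = 1.36e-11).

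The copy Gm6123, which aligns to Pdhb over 1079 bases at 97.0% identity, was lower in the knockout (log2 -5.81, SE 1.16, adjusted p = 1.62e-05) with a mean count of 72.8, or 1.12% of that of Pdhb. Gapdh had 170 annotated copies past the alignment limits, and their mean counts summed to 1.33% of its own. The 4 X-linked members, Pgk1, Pdha1, Pdk3 and Idh3g, were all called lower, against 62.5% of the 48 members and 13.3% of 633 tested X-linked genes. Of 12 members that overlap a protein-coding gene on the other strand, 4 (Pfkp, Aldoa, Pcx and Idh3b) have a neighbour with a mean count of at least 1000, and their counts are uncertain as far as the use of strand is not given.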
